A study of Mus musculus with 96 samples.

Results

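The 9 genes described here encode the Myc, Max and Mxd network of transcription factors and were taken by symbol: Myc, Mycn, Max, Mnt, Mga, Mxd1, Mxd3, Mxd4 and Mxi1. All 9 are listed among the 24057 genes of the deposited table, and 8 of them had a value above 0 in at least 1 cell. The cells were EL4, a mouse T-cell lymphoma line of C57BL/6 origin, infected with retroviral particles encoding GFP and a short hairpin RNA and sorted for GFP. In the control (WT) cultures, shLuc #1 and shLuc #2, the hairpin was directed against luciferase, and in the knockdown (CTCF-KD) cultures, shCTCF #1 and shCTCF #2, against Ctcf, which encodes the zinc finger protein CTCF that organizes chromatin loops and acts as an insulator. Single cells were captured on a microfluidic circuit, 24 cells per culture were sequenced, and 95 of 96 cells had at least 3000 genes detected and were kept. The cultures numbered 1 came from the initial experiment (experiment 1) and those numbered 2 from a second knockdown (experiment 2), and each culture had a circuit of its own, so that within an experiment the condition cannot be told apart from the culture or its circuit. The study used 2 hairpins against Ctcf. Its text does not settle which culture received which, so that experiment and hairpin cannot be told apart in any difference between shCTCF #1 and shCTCF #2. The comparison asked whether the level, the detection or the cell-to-cell variation of the network differed after loss of CTCF.

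The network works through exchange of partners. Max is the common partner: a heterodimer of Max with Myc or Mycn binds the E-box CACGTG and activates genes of ribosome production, metabolism and cell division, whereas heterodimers of Max with Mxd1, Mxd3, Mxd4, Mxi1 or Mnt bind the same sequence and recruit the SIN3 co-repressor with its histone deacetylases. Mga, the largest member, also dimerizes with Max and belongs to a variant Polycomb complex, PRC1.6. Myc is an oncogene of lymphomas, including T-cell lymphomas, and Mxd proteins are known for their rise when cells leave the cell cycle. The values below are of mRNA, in TPM (transcript abundance per gene length, scaled to 1000000 in each cell), which take account of the length of a gene and of the total of its cell.

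Depth and the targeted gene differed between cultures. The kept cells held 6192121, 5493040, 5606532 and 3232422 recovered reads in shLuc #1 and #2 and shCTCF #1 and #2, and a median of 4771, 4635, 6172.5 and 5656 genes per cell. With every cell thinned to 80000 reads the medians were 4178.5, 3963, 5234.5 and 5234 genes, so that more genes were detected per cell in both CTCF-KD cultures also at equal depth. The part of this in the results below was not tested, except where the slope on genes detected was removed. The mean level of Ctcf was 60.3 and 37.1 TPM in shLuc #1 and shLuc #2 against 15.96 and 44.9 TPM in shCTCF #1 and shCTCF #2. Ctcf mRNA was thus lowest in shCTCF #1, while shCTCF #2 lay between the 2 WT cultures. For this reason values of each experiment stand beside those of all cultures. In log2(mean TPM + 1), CTCF-KD minus WT was -0.79 ± 0.66 (SE, n = 2 cultures each, adjusted p = 0.815, limma) and did not pass the test. The study reports, by Western blot and quantitative PCR, lower CTCF protein and mRNA in both knockdown cultures than in the luciferase control. The reason for the higher Ctcf mean of shCTCF #2 in the single cells was not tested, and this mean is not read as a failed knockdown. All 8 T-cell markers were detected in each culture, with a summed mean of 8099.3 and 7820.6 TPM in shLuc #1 and #2 and of 6524.8 and 5914.6 TPM in shCTCF #1 and #2. Of the other markers, at most 1 of 4 B-cell genes, 2 of 4 myeloid genes and 2 of 4 fibroblast genes were detected in a culture, at a summed mean of at most 4.13 TPM for a list, and both erythroid genes in the table were at 0.

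Myc, on chromosome 15 (GRCm38, 61985391 to 61990374, plus strand, by GENCODE M21), was the most abundant member in every culture. Its mean was 240.9 TPM in shLuc #1 (19 of 24 cells detected), 238.2 TPM in shLuc #2 (22 of 23 cells), 343.7 TPM in shCTCF #1 (23 of 24 cells) and 315.1 TPM in shCTCF #2 (22 of 24 cells). The lowest, median and highest cell had 0, 131.0 and 785.5 TPM in shLuc #1, 0, 160.6 and 1129.5 TPM in shLuc #2, 0, 264.5 and 2185.9 TPM in shCTCF #1, and 0, 296.0 and 744.7 TPM in shCTCF #2. Both CTCF-KD cultures therefore lay above both WT cultures in the mean and in the median of cells. On the scale of log2(mean TPM + 1) the difference, CTCF-KD minus WT, was 0.46 ± 0.30 (SE, n = 2 cultures each; 0.51 in experiment 1 and 0.40 in experiment 2), and it did not pass the test (adjusted p = 0.775, limma with Benjamini-Hochberg adjustment over 11980 genes). With the mean over cells of log2(TPM + 1) as the culture value, which weights cells without Myc more, it was 1.29 (adjusted p = 0.301, limma). It was 0.64 (adjusted p = 0.724, limma) once the slope of each gene on the number of genes detected per cell was also removed.

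The other members formed a range of levels well under that of Myc. Over the 95 cells the means were 64.3 TPM for Mxd3, 49.5 TPM for Mxd4, 19.7 TPM for Max, 17.97 TPM for Mxi1, 10.6 TPM for Mga, 10.1 TPM for Mxd1 and 2.65 TPM for Mnt, against 285.0 TPM for Myc. The lowest Myc culture, at 238.2 TPM, lay above the highest culture of Mxd3, at 99.1 TPM. Every other pair of neighbours in this order overlapped in the range of their 4 culture means, so that their order is not separated from the spread between cultures. Mycn (chromosome 12, 12936093 to 12941914, minus strand), the relative of Myc known from neural tumors, was detected in 0 of 95 cells, which allows a share of up to 3.16% of cells with a read and a level of up to 0.146 RPM (reads scaled to 1000000 in all), for counting error only. Mycl, a further Max partner of the MYC family that is no member of the set, was also detected in 0 of 95 cells, so that Myc was the only one of the 3 with a read.

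**Figure D1:**
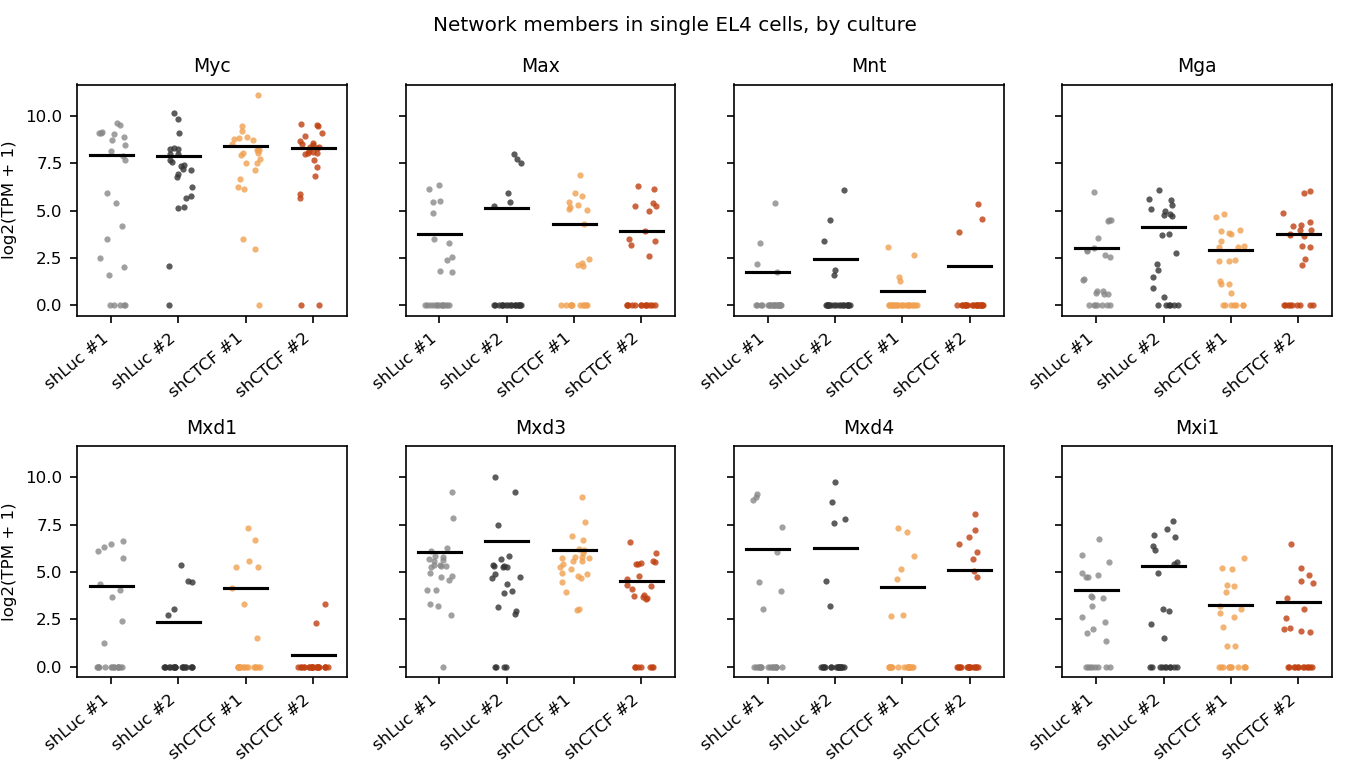
Level of each detected member in single cells. The y axis gives log2(TPM + 1), the x axis the 4 cultures, points are cells, and black lines are log2(mean TPM + 1) of a culture. Myc lies highest, with 5 cells at 0 in shLuc #1 and 1, 1 and 2 in the other cultures, while most cells are at 0 for Mnt, Mxd1 and Mxd4.

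Max, the obligate partner (chromosome 12, 76937269 to 76962201, minus strand), was found in at most 13 of 24 cells of a culture. Its mean was 12.4 TPM in shLuc #1 (11 of 24 cells), 34.2 TPM in shLuc #2 (6 of 23 cells), 18.5 TPM in shCTCF #1 (13 of 24 cells) and 14.2 TPM in shCTCF #2 (11 of 24 cells). The highest mean and the lowest number of positive cells were both in shLuc #2, where the positive cells had 37.5 to 255.1 TPM. The cultures overlapped and the difference was -0.34 ± 0.76 (SE, n = 2 each; adjusted p = 0.943, limma), with opposite signs in experiment 1 (0.54) and experiment 2 (-1.22). The ratio of mean Myc to mean Max was 19.4 and 6.96 in shLuc #1 and #2 and 18.6 and 22.3 in shCTCF #1 and #2, so that shLuc #2 alone stood apart.

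Among the repressive partners, Mxd4 and Mxi1 were the members whose CTCF-KD cultures both lay below both WT cultures. Mxd4, a partner known from cells that cease to divide (chromosome 5, 34173883 to 34187720, minus strand), had a mean of 73.1 TPM in shLuc #1, 75.4 TPM in shLuc #2, 17.6 TPM in shCTCF #1 and 32.99 TPM in shCTCF #2. The difference was -1.58 ± 0.52 (SE, n = 2 each; -2.00 in experiment 1 and -1.17 in experiment 2; unadjusted p = 0.0208, adjusted p = 0.606, limma) and did not pass the test. The number of positive cells hardly moved with it: 8 of 24 and 6 of 23 cells in shLuc #1 and #2, and 7 of 24 and 8 of 24 in shCTCF #1 and #2. The difference lay instead in the level of positive cells, whose median was 114.5 and 207.2 TPM in WT but 34.8 and 76.8 TPM in CTCF-KD. These levels rested on few cells, since 1 cell held 50.2% of all Mxd4 in shLuc #2 and 31.1% to 37.7% in the others, and with log2(TPM + 1) averaged over cells the difference was -0.20 (adjusted p = 0.901, limma). Without the highest cell of each culture, an alternative added after the data were seen, it was -1.44 (adjusted p = 0.527, limma).

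Mxi1, encoding the repressor also called Mxd2 (chromosome 19, 53310518 to 53375810, plus strand), had a mean of 15.8 TPM in shLuc #1, 38.6 TPM in shLuc #2, 8.72 TPM in shCTCF #1 and 9.64 TPM in shCTCF #2. The difference was -1.34 ± 0.78 (SE, n = 2 each; -0.79 in experiment 1 and -1.90 in experiment 2; adjusted p = 0.752, limma). Here detection differed in the same direction, with 16 of 24 and 13 of 23 WT cells against 13 of 24 and 12 of 24 CTCF-KD cells, and at 80000 reads per cell 45.8% and 56.5% against 37.5% and 39.1%. Mxi1 was the only member for which both CTCF-KD cultures had a lower share of positive cells than both WT cultures, whether cells were thinned or not (exact permutation p = 0.333, two-sided, the smallest that 2 against 2 cultures allow). Unthinned, the nearest cultures were close, with 13 of 23 against 13 of 24 cells. The share of all genes that separate in this way was not determined, so the result has no background to stand against.

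Mxd3, a repressive partner known from cells in S phase (chromosome 13, 55325168 to 55329823, minus strand), was after Myc the member found in most cells, in 23 of 24, 19 of 23, 24 of 24 and 17 of 24 cells of shLuc #1 and #2 and shCTCF #1 and #2. Its mean was 65.4, 99.1, 71.6 and 22.4 TPM in the same order. Only shCTCF #2 was low, and the difference was 0.13 in experiment 1 and -2.10 in experiment 2 (-0.98 ± 0.64 over both, SE, n = 2 each; adjusted p = 0.775, limma). A large part of the WT means came from single cells, 1 of shLuc #1 with 587.7 TPM and 1 of shLuc #2 with 1050.5 TPM, which held 37.5% and 46.1% of all Mxd3 in these cultures. The gene overlaps Prelid1 on the opposite strand by 105 bases, and as no strand setting is given for the counting, reads from these bases cannot be assigned to one of the genes.

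Mxd1, the founding member of its family and a marker of differentiation (chromosome 6, 86647042 to 86669161, minus strand), split by experiment and not by condition. Its mean was 18.5 TPM in shLuc #1 and 17.02 TPM in shCTCF #1, but 4.22 TPM in shLuc #2 and 0.547 TPM in shCTCF #2, where 4 reads in 2 of 24 cells were all that was found. The difference was -0.93 ± 1.40 (SE, n = 2 each; -0.11 in experiment 1 and -1.75 in experiment 2; adjusted p = 0.907, limma).

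Mnt and Mga differed little between conditions in comparison with their spread. Mnt, the broadly expressed repressive partner (chromosome 11, 74830920 to 74845725, plus strand), was the rarest detected member, with 2.34, 4.48, 0.666 and 3.19 TPM in shLuc #1 and #2 and shCTCF #1 and #2 from 107 reads in 16 of 95 cells (-0.70 ± 0.86, SE, n = 2 each; adjusted p = 0.882, limma). Mga (chromosome 2, 119897228 to 119969581, plus strand) had 7.24, 16.6, 6.45 and 12.4 TPM in the same order and was found in 17 of 24, 17 of 23, 17 of 24 and 15 of 24 cells (-0.27 ± 0.88, SE, n = 2 each; adjusted p = 0.966, limma). Mga, too, divided the cultures by experiment, with both cultures of experiment 2 above both of experiment 1.

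Across all 11980 genes tested, 0 genes passed an adjusted p of 0.05, that is 0% of genes, and 0 of the 8 members tested; Mycn could not be tested. At an unadjusted p under 0.05, 2.82% of genes were lower and 4.79% higher in CTCF-KD, and 1 of the 8 members, Mxd4, was among the lower. Both CTCF-KD cultures lay above both WT cultures for 19.9% of genes and for 1 of the 8 members, Myc, and below for 16.9% of genes and for 2 of the 8, Mxd4 and Mxi1. These shares of members are near those of all genes. In each experiment, 30.1% of genes and 1 of the 8 members were higher, and 26.7% of genes and 5 of the 8 members were lower. Whether the count of lower members differs from that of all genes was not tested. The median difference of the 8 members was -0.81, and that of all genes tested was 0.04.

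**Figure D2:**
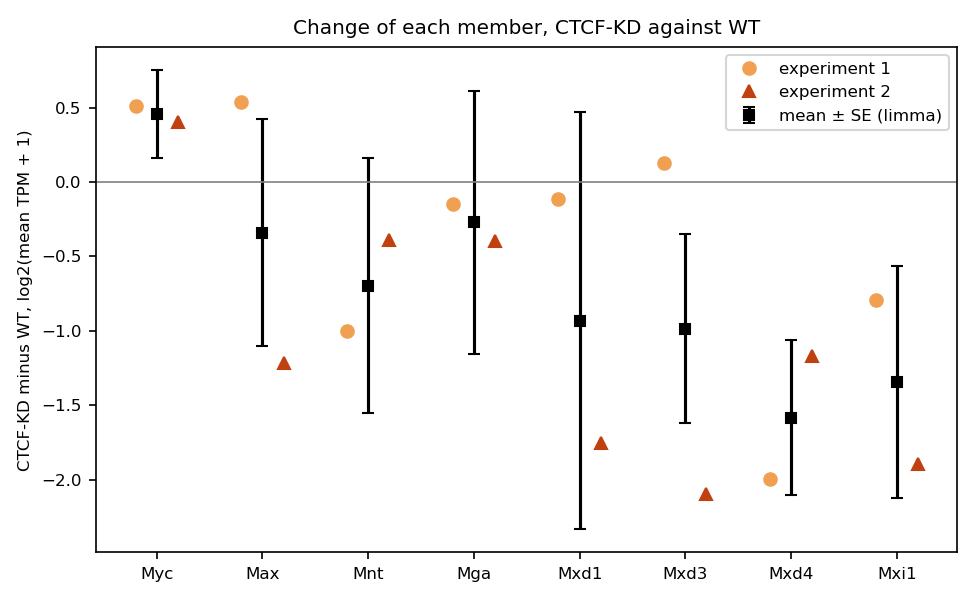
Difference of each member between conditions. The y axis gives CTCF-KD minus WT of log2(mean TPM + 1), black squares are the limma estimates with their SE (n = 2 cultures each), circles are experiment 1 and triangles experiment 2. Myc is above 0 in both experiments, Mnt, Mga, Mxd1, Mxd4 and Mxi1 are below 0 in both, and Max and Mxd3 lie on opposite sides; none passed the test.

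The makeup of the partner mRNA put these levels together. Of the summed mean TPM of Myc, Mycn, Mnt, Mga, Mxd1, Mxd3, Mxd4 and Mxi1, the genes whose products dimerize with Max, Myc made up 56.9% in shLuc #1 and 50.0% in shLuc #2 against 73.8% in shCTCF #1 and 79.5% in shCTCF #2. The difference was 23.2 percentage points (16.9 in experiment 1 and 29.5 in experiment 2; exact permutation p = 0.333, two-sided, the smallest that 2 against 2 cultures allow). The sum of the repressive partners Mnt, Mxd1, Mxd3, Mxd4 and Mxi1 was 175.1 and 221.9 TPM in WT and 115.5 and 68.8 TPM in CTCF-KD, so that the ratio of Myc to this sum was 1.38 and 1.07 in WT and 2.98 and 4.58 in CTCF-KD. Both a higher numerator and a lower denominator entered the ratio. The WT sums rested in part on few cells: in shLuc #2 the highest cell held 46.1% of all Mxd3 and the highest for Mxd4 held 50.2%. With log2(TPM + 1) averaged over cells the differences were -0.18 for Mnt, -0.20 for Mxd4, -0.26 for Mxd3, -0.49 for Mxd1 and -0.93 for Mxi1. None of these passed the test. Mxd4 went from 17.3% and 15.8% of the partner mRNA in WT to 3.77% and 8.32% in CTCF-KD, whereas Mxd3 had 15.4% in both cultures of experiment 1 and 20.8% and 5.65% in experiment 2.

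**Figure D3:**
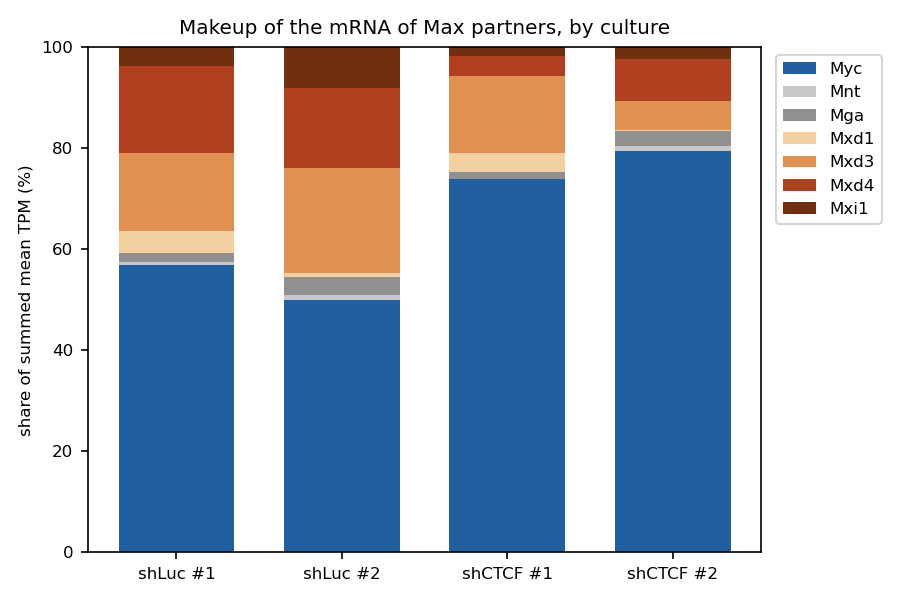
Makeup of the mRNA of Max partners in each culture. Bars stack the share, in percent, of each gene in the summed mean TPM. Myc takes 56.9% and 50.0% in the WT cultures and 73.8% and 79.5% in the CTCF-KD cultures.

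The same held within single cells. The mean over cells of the share of Myc in a cell was 43.1% and 47.9% in WT and 62.1% and 70.1% in CTCF-KD, and Myc was the highest of all members in 11 of 24, 14 of 23, 18 of 24 and 21 of 24 cells of shLuc #1 and #2 and shCTCF #1 and #2. A cell had a median of 4 members detected in each culture, with a lowest of 1 and a highest of 8. Myc and Max were found together in 9 of 24, 6 of 23, 13 of 24 and 11 of 24 cells. Myc was missing from 9 cells in all, 5 of them in shLuc #1, and each of the 9 had at least 1 repressive partner detected. Nearly all cells with Myc had one too: 19 of 19 and 21 of 22 in shLuc #1 and #2, and 23 of 23 and 21 of 22 in shCTCF #1 and #2. The 9 cells without Myc had 130697 to 287535 reads and 3910 to 5846 genes, within the range of the reads of their cultures.

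Detection was also compared at equal depth. With cells thinned to 80000 reads, which left out 1 cell of shCTCF #2, Myc was found in 66.7% and 95.7% of WT cells and in 91.7% and 91.3% of CTCF-KD cells, and shLuc #1 alone was low. Max was found in 33.3% and 26.1% of WT cells and in 41.7% and 39.1% of CTCF-KD cells after thinning, so that its share of positive cells was higher in both CTCF-KD cultures while its mean was not (exact permutation p = 0.333, two-sided, the smallest possible). For Max, too, the share of all genes that separate in this way was not determined. Thinning brought Mga to 54.2% and 65.2% against 62.5% and 56.5%, and Mxd3 to 87.5% and 65.2% against 87.5% and 52.2%, in which the cultures overlapped. Reads behind these values were 7461 for Myc, 1376 for Mga, 1160 for Mxi1, 923 for Mxd3, 574 for Mxd1, 526 for Mxd4 and 409 for Max over the 95 cells, so that Myc was measured with by far the most reads. In RPM, which does not take account of gene length, Myc was at 328.2 (95% Poisson interval 314.0 to 342.7) and 293.3 (279.1 to 308.0) in WT and at 442.0 (424.8 to 459.7) and 414.5 (392.6 to 437.4) in CTCF-KD, with intervals for counting error only.

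Levels of the members moved little with each other from cell to cell. Over the 95 cells, centred on their culture, Pearson's r of log2(TPM + 1) between pairs of the 8 detected members ran from -0.31 for Myc with Mxi1 to 0.40 for Mnt with Mxd4, as a description of cells that share their culture and circuit. In 2 cultures, shLuc #2 and shCTCF #1, the cell with the most Mnt was also the one with the most Mxd4. The genes most like Myc by the same measure, among genes averaging above 1 in log2(TPM + 1), were Tbl1x (r = 0.46), Ube2t (0.41), Ola1 (0.40), Vta1 (0.40) and Hspd1 (0.37). Those most like Max were Top3b (r = 0.44), Dync2h1 (0.36), Rars (0.35), 9030624J02Rik (0.35) and Strada (0.35). For both Myc and Max these were the highest of 7842 genes compared, so the values carry that selection and were not tested. By culture, r ran from 0.05 in shCTCF #2 to 0.64 in shCTCF #1 for Vta1 with Myc. For Strada with Max it ran from -0.04 in shLuc #1 to 0.63 in shLuc #2. Hspd1, a mitochondrial chaperone, was itself on the list of MYC-induced genes described below. Within cultures it correlated with Myc at 0.32 to 0.51, in the same cells by which it was picked, so these values are no added support. The mean of that whole list correlated with Myc at 0.00 to 0.25 within cultures.

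Cell-to-cell variation was measured as the coefficient of variation (CV), that is the SD of log2(TPM + 1) divided by its mean, over all cells of a condition. It was called increased or decreased where it differed between conditions by over 1 SD more, or less, than the mean difference of the 7843 genes whose log2(TPM + 1) averaged above 1. This rule called 7.68% of genes increased and 11.3% decreased, around a mean difference of -0.279. Among the 7 members in this set, Mxd1 and Mxi1 were increased and 0 were decreased. The CV of Mxd1 was 1.61 in WT and 2.16 in CTCF-KD, a difference of 0.549, which was also increased in each experiment alone (0.228 and 1.43). The CV of Mxi1 was 0.960 in WT and 1.13 in CTCF-KD, a difference of 0.173, close to the limit of the call; after the CV expected from the mean level was removed the difference was -0.0304 and the call was lost. The mean log2(TPM + 1) was lower in CTCF-KD for both genes, 0.93 against 1.43 for Mxd1 and 1.82 against 2.74 for Mxi1. Mxd1 averaged 1.18 over all kept cells and so entered the set, but in CTCF-KD it lay under the limit of 1. In experiment 2 it was under this limit in both cultures, at 0.88 in shLuc #2 and 0.24 in shCTCF #2. There 2 of 24 cells of shCTCF #2 had a value. The calls of Mxd1 are therefore not read as support for a change in variation.

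Myc was among the members with the least variation, with a CV of 0.518 in WT and 0.323 in CTCF-KD, and its difference of -0.195 was close to that of the average gene. By culture its CV was 0.693 and 0.331 in shLuc #1 and #2 and 0.317 and 0.335 in shCTCF #1 and #2: shLuc #1, the culture with 5 cells without Myc, stood apart from the other 3. The CV of Mxd3 was 0.478 in WT and 0.489 in CTCF-KD, and that of Max, which has many cells at 0, was 1.502 and 1.11; neither was called, nor were Mga and Mxd4.

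**Figure D4:**
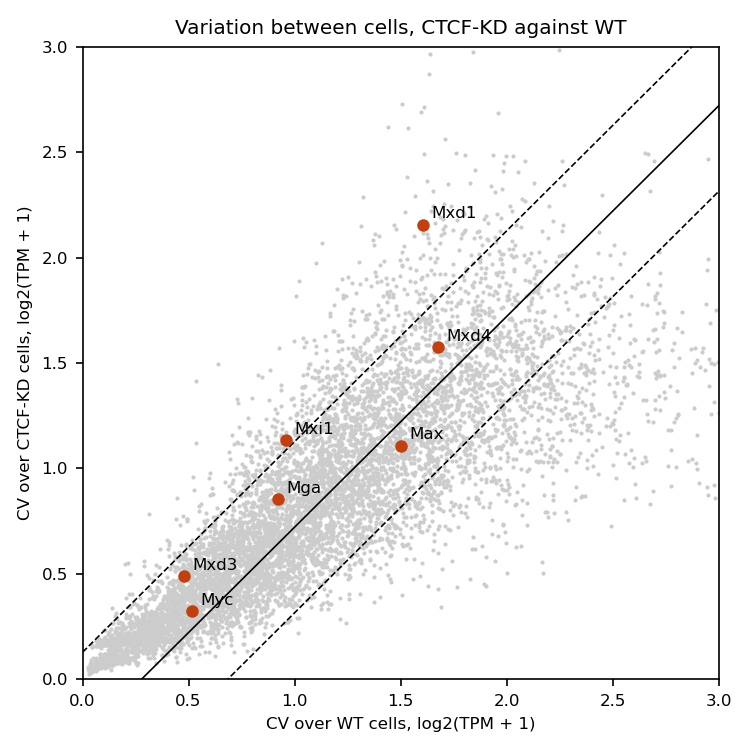
CV of log2(TPM + 1) over WT cells (x axis) and CTCF-KD cells (y axis). Grey points are the genes of the set, 65 of them beyond the axes, red points are members, the solid line is the mean difference and dashed lines are 1 SD from it. Mxd1 and Mxi1 lie above the upper dashed line.

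The E-box to which the network binds occurs in promoters of the network itself. In RefSeq promoters (GRCm38.p6, 250 bases before to 50 after the start, both strands since CACGTG is its own reverse complement), the motif was found for 3 of the 8 members with an entry, Max, Mnt and Mxd4, against 8.09% of all 27025 genes with an entry and 11.7% of the 9132 tested ones. By promoter it was 3 of 10 against 7.15% of 32851. The windows below show it in capitals in the sequence of the gene's own strand, to set the common partner beside Mxd4, whose cultures did not overlap between conditions, and Mnt, whose cultures did.
Max, chr12:76962234-76962263, minus strand, motif beginning 3 bases before the start: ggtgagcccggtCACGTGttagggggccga
Mnt, chr11:74830789-74830818, plus strand, motif beginning 123 bases before the start: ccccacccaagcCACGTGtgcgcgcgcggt
Mxd4, chr5:34187912-34187941, minus strand, motif beginning 219 bases before the start: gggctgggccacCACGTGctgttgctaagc
Their differences of -0.34, -0.70 and -1.58 were all below 0 and did not pass the test. A match is a stretch of letters and no measurement of binding. Mga, Mxd1, Mxd3, Mxi1 and Mycn had no match in these windows. The differences of Mga (-0.27), Mxd1 (-0.93), Mxd3 (-0.98) and Mxi1 (-1.34) were below 0 as well. The sign therefore did not set the genes with a match apart. Myc, at 0.46, had no promoter entry.

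On the chromosome, the listed genes next to Myc were A1bg and D030024E09Rik before it, 1062.4 and 210.9 kb away and detected in 0 cells of any culture, and Pvt1 and the pseudogene H2afy3 after it. Pvt1, a long non-coding RNA that starts 47.6 kb beyond Myc, had a mean of 11.4 and 17.6 TPM in WT and of 16.1 and 26.8 TPM in CTCF-KD, ranges that overlap (0.52 ± 0.71, SE, n = 2 each; adjusted p = 0.893, limma). More cells had it in CTCF-KD, 18 of 24 and 20 of 24 against 10 of 24 and 10 of 23. Shares of cells were not adjusted here for depth or for the higher number of genes detected per cell in both CTCF-KD cultures. The share of all genes that separate in this way was not determined, so this count is not read as particular to Pvt1.

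Genes known to be induced by MYC were for the most part higher in the CTCF-KD cultures, though 0 passed the adjusted test. The list of these genes, like that of MYC-repressed genes below, was chosen with earlier results of these data known. The counts from both lists therefore describe the data and are no independent test. Of the 38 MYC-induced genes listed, which hold nucleolar, nucleotide and translation genes, both CTCF-KD cultures lay above both WT cultures for 28 (19.9% of all genes) and below for 2, and 20 had an unadjusted p under 0.05 and were higher (4.79% of all genes). Their median difference was 0.98 (0.96 in experiment 1 and 0.89 in experiment 2), against 0.04 over all genes tested, and it ran from 0.83 to 1.85 over 14 alternative settings. Nolc1, a nucleolar chaperone, had a log2(mean TPM + 1) of 5.17 and 4.88 in WT and 7.26 and 7.77 in CTCF-KD, a difference of 2.49 ± 0.42 (SE, n = 2 each; adjusted p = 0.585, limma). Apex1, a DNA repair endonuclease, differed by 2.37 ± 0.45 (SE, n = 2 each; adjusted p = 0.585, limma). At the other end stood E2f1 (-1.10 ± 0.84) and Cdc25a (-0.46 ± 0.63), which drive entry into S phase, with adjusted p of 0.796 and 0.895 (limma). When log2(TPM + 1) was averaged over cells, a scale on which 0.367% of all genes were called higher, 6 of the 38 were called: Srm, Apex1, Dkc1, Ppan, Ppat and Nolc1. With the slope on genes detected per cell also removed, 0 of the 38 were called and the median difference was 1.32. Of the 33 genes of the list with a RefSeq promoter, 9 held the E-box (27.3%), as did 3 of 11 (27.3%) on the list of MYC-repressed genes, against 11.7% of the 9132 tested genes with a promoter.

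Genes known to be repressed by MYC were lower for the most part. Of 14 listed, 11 could be tested; both CTCF-KD cultures lay below both WT cultures for 8 (16.9% of all genes) and above for 1, and the median difference was -0.67 (-0.63 in experiment 1 and -0.77 in experiment 2). Ndrg1, induced in differentiation and hypoxia, differed by -1.36 ± 0.31 (SE, n = 2 each; adjusted p = 0.585, limma) and Cdkn2d, an inhibitor of CDK4 and CDK6, by -1.03 ± 0.34 (adjusted p = 0.597). The cell cycle inhibitors Cdkn1a (0.75 ± 0.41, adjusted p = 0.743) and Cdkn2c (0.83 ± 1.22, adjusted p = 0.905) had the highest statistics, and Cdkn1a was the one gene of the list that was higher in both CTCF-KD cultures. Within cultures, Myc correlated with the mean of the induced list at an r of 0.00 to 0.25 over cells.

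**Figure D5:**
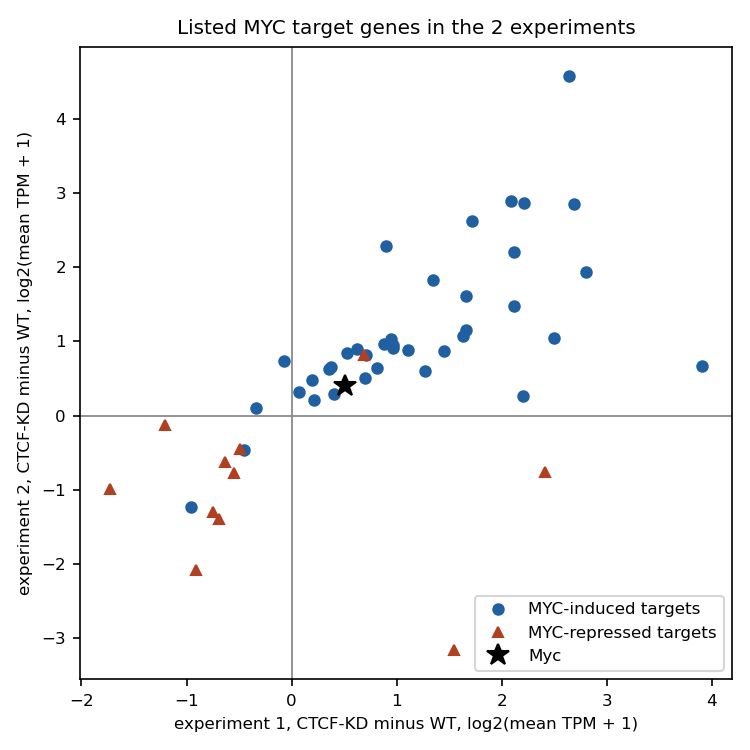
Difference of listed MYC target genes in each experiment. Axes give CTCF-KD minus WT of log2(mean TPM + 1) in experiment 1 (x) and experiment 2 (y), circles are 38 induced and triangles 11 repressed genes, and the star is Myc. Of the induced genes 34 are above 0 in both experiments, and 8 of the repressed genes are below 0 in both.

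Genes that work with the network lay on both sides. The counts below stand against 19.9% of all genes with both CTCF-KD cultures above and 16.9% with both below the WT cultures. They also stand against 30.1% and 26.7% that were higher or lower in each experiment. Of 14 co-activators of MYC, 3 lay higher and 3 lower in both CTCF-KD cultures, and 7 were higher and 3 lower in each experiment (median 0.21): Ruvbl1, a helicase of the TIP60 complex, differed by 1.53 ± 0.46 and Hcfc1, a host cell factor that binds MYC, by -1.02 ± 0.42 (SE, n = 2 each; adjusted p = 0.585 and 0.652, limma). Of 16 genes of the SIN3 and NCOR co-repressors, 2 lay higher and 2 lower, and 2 were higher and 8 lower in each experiment (median -0.25), with Rbbp7 at 0.86 ± 0.36 and Ncor1 at -0.86 ± 0.42 (adjusted p = 0.653 and 0.696, limma). Of 12 genes of MYC protein turnover, 6 lay higher and 1 lower, and 7 were higher and 3 lower in each experiment (median 0.40): the ubiquitin ligase Stub1 differed by 1.13 ± 0.45 and Aurka, a kinase known to shield MYC proteins from degradation, by -1.12 ± 0.55 (adjusted p = 0.635 and 0.696, limma). Of 10 genes of the PRC1.6 complex of Mga, 2 lay higher and 2 lower, and 4 were higher and 3 lower in each experiment (median 0.32), among them Tfdp1 at 1.66 ± 0.59 and E2f6 at -1.40 ± 0.81 (adjusted p = 0.610 and 0.752, limma).

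A parallel arm of the network uses Mlx in place of Max. Mlx, Mlxip and Mlxipl differed by -0.24 ± 0.36, 0.19 ± 0.83 and -0.03 ± 0.41 (SE, n = 2 each; adjusted p from 0.904 to 0.996, limma). Of 2 listed targets of this arm, only Txnip met the filter for testing. Txnip, a thioredoxin-binding inhibitor of glucose uptake and the best known target of this arm, had a mean of 286.1 TPM in shLuc #1, 308.3 TPM in shLuc #2, 41.5 TPM in shCTCF #1 and 81.9 TPM in shCTCF #2. The CTCF-KD cultures lay far below the WT cultures, with a difference of -2.33 ± 0.43 (SE, n = 2 each; -2.75 in experiment 1 and -1.90 in experiment 2; adjusted p = 0.585, limma). With log2(TPM + 1) averaged over cells it was -3.48 and passed the test (adjusted p = 0.0468, limma). With the slope on genes detected also removed it was -3.75 and did not pass (adjusted p = 0.0915, limma). In size the differences on the mean level and on averaged log2 values exceeded those of every member of the network on the same scale.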

How the data were processed

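Single EL4 cells from 2 WT (shLuc) and 2 CTCF-KD (shCTCF) cultures were profiled by full-length single-cell RNA-seq on the Fluidigm C1 system. The authors aligned reads to GRCm38 with STAR, counted uniquely mapped reads per RefSeq gene with HTSeq and deposited TPM for 96 cells; a strand setting is not given in the sources used here. Cells with fewer than 3000 genes were left out, which removed 1 cell of shLuc #2 (81 genes, 90 reads). Doublets were not called. Whole reads were recovered from the TPM steps (tolerance 0.001) for all 13334 genes with a value; for the 1336 genes found in 1 cell the step could not be checked. Recovered reads served for depth, thinning and RPM, and no count model was fitted. Reads are not unique molecules, so limits cover counting error only.

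The culture was the replicate. Genes for which 2 or more cells exceeded a log2(TPM + 1) of 1 were tested with limma 3.58.1 (trend) on log2(mean TPM + 1), pseudocount 1, in R 4.3.3, with Benjamini-Hochberg adjustment at 0.05; single values were compared by exact permutation. The labels name no separate starting cultures behind the replicates, so p-values measure the spread between these 4 cultures, which may be technical. CV was computed over the pooled cells of a condition, as in the study's methods, without a test. The culture number pairs the cultures, since it marks the experiment in the study's methods; deviations from the condition means correlated at r = 0.175 over 11980 genes. Programs were tested on simulated data. Gene coordinates are from GENCODE M21 and promoters from RefSeq GRCm38.p6.

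Members and gene lists were chosen with earlier results of these data known. Named were all members, Ctcf, the 2 highest and 2 lowest limma statistics of each list, the 5 genes most like Myc and Max, and 2 listed genes on each side of Myc; of these, some are given by count only, and Srm, Dkc1, Ppan and Ppat were named after their values were seen.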

Additional observations from a re-analysis of the deposited data

Results flagged for a closer look

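Several values differed in sign between the experiments; chance and cause were not tested, since with 1 culture per condition in an experiment the difference between experiments has no replicate check. In log2(mean TPM + 1), CTCF-KD minus WT, Max was 0.54 in experiment 1 and -1.22 in experiment 2, Mxd3 was 0.13 and -2.10, Ctcf -1.85 and 0.27, Mlxip -0.35 and 0.73, and Cdkn2c 2.41 and -0.76. The share of positive cells, CTCF-KD minus WT, was 16.7 and -3.99 percentage points for Myc, 4.17 and -11.8 for Mxd3, and -4.17 and 7.25 for Mxd4. The difference in CV was -0.376 and 0.00334 for Myc, -0.181 and 0.0424 for Mga, -0.11 and 0.0837 for Mxd3, and 0.146 and -0.371 for Mxd4. In Mxd4 detection and CV thus ran opposite between experiments, while its mean level was lower in CTCF-KD in both.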

How the results depend on the processing

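With the mean over cells of log2(TPM + 1) as culture value, 46 genes passed the test instead of 0 (44 higher and 2 lower), none of them a member, and the median of all genes tested was 0.23 instead of 0.04. With the slope on genes detected per cell also removed, 0 genes passed (lowest adjusted p 0.0915, limma; 793 higher and 622 lower at an unadjusted p under 0.05). When log2(TPM + 1) was averaged over cells and the slope was kept, Max was 0.47, the reverse of its main direction. Once the slope was removed as well, Max was -0.25, in its main direction. The cause of the reversal was not tested. With the highest cell of each gene left out of each culture, added after the data were seen, the median of all genes was 0.10. With the experiment number as a replicate block 0 genes and 0 members passed, and no other call changed; the share of Myc in partner mRNA differed by 23.2 percentage points within experiments. Left out in turn, single cultures moved Max from -1.03 to 0.36, Mga from -0.82 to 0.28 and Mxd1 from -2.70 to 0.84; Mga reversed to 0.15 without shCTCF #1, and Mxd1 to 0.02 without shLuc #1. Myc, Mnt, Mxd3, Mxd4 and Mxi1 kept their direction under all alternatives run, and the lowest value for Myc was 0.39. Mnt was -0.03 without shCTCF #1, Mxd3 -0.17 without shCTCF #2, and Mxd4 -0.20 and Myc 1.29 on the mean over cells. The members whose share of positive cells did not overlap between conditions numbered 1, but 2 after thinning to 80000 reads, 3 at TPM above 10, and 3 to 5 with 1 culture left out, which has fewer cultures to overlap. The share of all genes without such overlap was not determined, so these counts are not read as a result about the members. Of 2 members called by CV, 1 was left with CV of linear TPM, in experiment 2 alone and with the expected CV removed, each time Mxd1; the difference of Mxi1 reversed to -0.0304 under the last. Depth limits Mxd1 and Mnt most, with 4 reads of Mxd1 in shCTCF #2 and 7 reads of Mnt in shCTCF #1.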
